A study of Mus musculus with 6 samples.

Results

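The genes described here encode the liver enzymes that take amino acids apart and the enzymes of the urea cycle. A list of 42 genes was used, and a gene entered when the array annotation gave its symbol as the only symbol of a probe set. By this rule 38 of the 42 genes were measured, with 54 probe sets, among 12393 genes and 22626 probe sets on the array as a whole. Gls2, Sdsl and Amt had no such probe set. The probe set of Ass1 also carried the symbol of another gene and was left out, and Mut was annotated on the array as Mmut.

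Liver mRNA was compared between DUhTP mice, a line bred over many generations for running performance on a treadmill, and DUC mice, the unselected control line. Both lines descend from a cross of outbred and inbred founder lines and are kept non-inbred. All mice were 70 days old, males according to the methods of the study, and had not been trained. Each line was represented by 3 arrays of total RNA (Affymetrix Mouse Genome 430A 2.0). The labels describe each array as 1 mouse whereas the methods speak of pools, so the p-values measure the spread between these arrays, which may be mice or pools. The line differs from its control in everything that selection and drift fixed, so the treadmill phenotype and any other difference between the lines cannot be told apart.

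Amino acid catabolism in hepatocytes begins with the removal of the amino group. Transaminases pass it to 2-oxoglutarate to form glutamate, glutamate dehydrogenase sets it free as ammonium, and the urea cycle turns ammonium and the nitrogen of aspartate into urea. The remaining carbon skeletons follow a pathway of their own for each amino acid and end in glucose, ketone bodies or the citric acid cycle. Many of these enzymes are known to respond to fasting, glucagon, glucocorticoids and dietary protein.

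The values are PLIER intensities on a linear scale, and differences are given as log2 fold changes of DUhTP over DUC. Tests were moderated by limma across all probe sets, with Benjamini-Hochberg adjustment over all of them, and a change was called at an adjusted p under 0.05. Where a gene had several probe sets, the brightest stood for it. The array medians lay between 53.1 and 57.0, and any pair of arrays of the same line correlated at 0.959 or more for DUhTP and at 0.974 or more for DUC (log2 intensities). The 9 hepatocyte markers measured of 10 listed summed to 110406 to 112470 over DUhTP arrays and to 109570 to 115054 over DUC arrays, and none was called. In whole liver, fewer cells of a type and less RNA per cell cannot be told apart.

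Of the 38 member genes, 6 differed between the lines. Got1, Gpt2, Tat, Aass and Csad were lower in DUhTP mice and Mccc1 was higher. With any 1 array left out the count fell to between 0 (without DUC replicate 2) and 2, 1 without DUC replicate 1 or 3 and 2 without any of the DUhTP arrays. The calls over all genes fell as well, to between 0 (without DUC replicate 2) and 0.573% (without DUhTP replicate 2). With all arrays the share of members called was 15.8%, beside 2.68% of all 12393 genes. In the lower direction 1.05% of all genes were called and in the higher direction 1.63%. At the level of probe sets, 8 of 54 were called (14.8%), 7 of them lower, beside 2.41% of all probe sets, and when any probe set of a gene could call it the count stayed at 6 genes (15.8%), beside 3.32% of genes. A fold change over 2 was reached by 4 of the called members, Got1, Csad, Aass and Gpt2, where 1.44% of all genes passed both criteria.

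Low intensities on this scale give large and noisy log ratios, so the fit was repeated after 16 was added to every intensity. With 16 added, 11 member genes were called (28.9%), 3 higher and 8 lower, beside 8.92% of all genes, 4.38% higher and 4.53% lower. All 6 genes called without the constant were among them. The genes added by the constant were Gstz1 and Aldh4a1, higher, and Asl, Arg1 and Mut, lower. At an unadjusted p under 0.05, 19 members passed, where 21.7% of all genes did. The members are bright, with a median mean intensity of 1702 where that of all genes was 76.1, and bright genes were called more often. Among genes with a mean intensity of at least 500, a limit chosen after the values were seen, 6.44% were called, or 18.3% with 16 added. Of the 35 members in that range 6 were called (17.1%), or 11 with 16 added (31.4%).

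The members lay in both directions, with more of them lower than higher in DUhTP mice. Among the 38 genes 22 had a lower mean in DUhTP mice and 16 a higher one, and their median log2 fold change was -0.08, beside 0.00 over all genes. Taken on each array as log2 intensity minus the DUC mean, the median over the members had a pooled SD among arrays of 0.095. Without DUhTP replicate 3 the median log2 fold change of the members was 0.02. In 14 members every DUhTP array lay below every DUC array, in 7 every DUhTP array lay above, and in 17 the lines overlapped. Such separation downwards was found in 16% of all genes and upwards in 15.6%. These shares cover all genes, which are dimmer than the members at the median, and were not taken among bright genes alone.

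**Figure D1:**
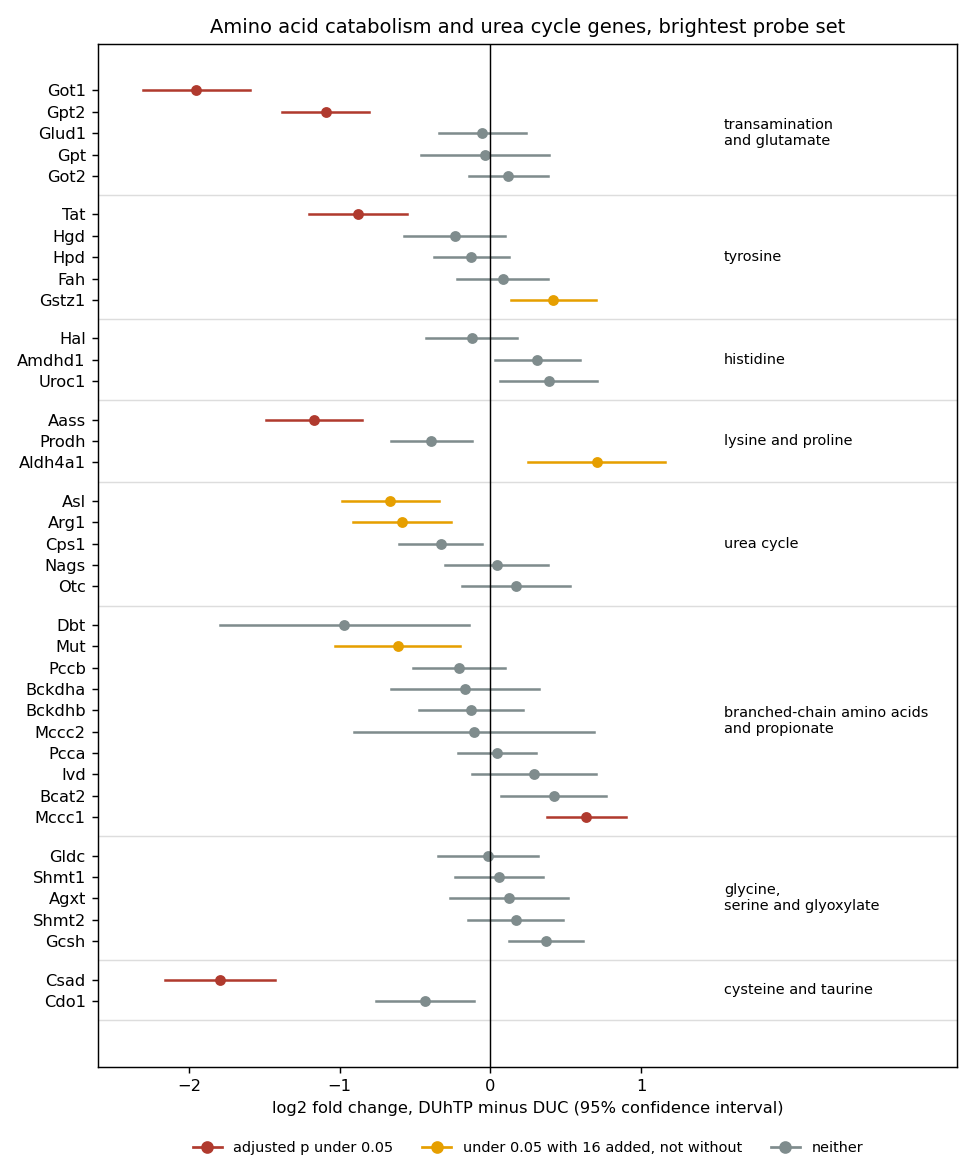
Log2 fold change of DUhTP over DUC for the brightest probe set of each of the 38 measured members, by amino acid group, with bars for the 95% confidence interval, in red for an adjusted p under 0.05, orange where this held with 16 added but not without, and grey otherwise. The 5 called genes on the left of 0 lie in the transamination, tyrosine, lysine and cysteine groups, and Mccc1 is the called gene on the right.

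RefSeq promoters, taken as 250 bases before to 50 bases after a transcription start in GRCm38.p6, were at hand for 31 of the 38 measured members in 36 windows. Those of the 5 members called lower are shown here, since these genes shared a direction. Each sequence runs 5′ to 3′ along the gene's strand. Capitals mark matches on either strand to the motifs searched, which were the cAMP response element TGACGTCA, the shorter TGACGT, the C/EBP palindrome TTGCGCAA, the CCAAT box CCAAT, the amino acid response element core TGATGNAAN and the E box CACGTG. The shorter cAMP motif is contained in the full element. Got1 lies at chr19:43524556-43524855 on the minus strand, Gpt2 at chr8:85492326-85492625 on the plus strand, Tat at chr8:109990186-109990485 on the plus strand, Aass at chr6:23132937-23133236 on the minus strand and Csad, in the window of its 2 that held a motif, at chr15:102205003-102205302 on the minus strand.
Got1: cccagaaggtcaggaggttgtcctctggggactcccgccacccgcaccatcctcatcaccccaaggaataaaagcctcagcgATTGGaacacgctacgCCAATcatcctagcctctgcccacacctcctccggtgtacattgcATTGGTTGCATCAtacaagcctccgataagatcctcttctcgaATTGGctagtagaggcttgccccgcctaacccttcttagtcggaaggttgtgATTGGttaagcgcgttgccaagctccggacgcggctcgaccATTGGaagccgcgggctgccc
Gpt2: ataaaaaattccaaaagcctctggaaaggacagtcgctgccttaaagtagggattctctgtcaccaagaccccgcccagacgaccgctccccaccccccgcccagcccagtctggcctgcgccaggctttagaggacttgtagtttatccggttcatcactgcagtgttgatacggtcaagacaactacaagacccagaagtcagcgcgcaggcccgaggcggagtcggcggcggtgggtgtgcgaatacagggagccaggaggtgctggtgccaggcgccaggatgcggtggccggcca
Tat: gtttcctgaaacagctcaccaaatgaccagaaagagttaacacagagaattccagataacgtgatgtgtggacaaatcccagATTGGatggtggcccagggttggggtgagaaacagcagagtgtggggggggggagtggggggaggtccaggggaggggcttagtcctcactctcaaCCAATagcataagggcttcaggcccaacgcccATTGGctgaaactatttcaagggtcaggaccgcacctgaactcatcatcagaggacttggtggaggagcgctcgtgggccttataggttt
Aass: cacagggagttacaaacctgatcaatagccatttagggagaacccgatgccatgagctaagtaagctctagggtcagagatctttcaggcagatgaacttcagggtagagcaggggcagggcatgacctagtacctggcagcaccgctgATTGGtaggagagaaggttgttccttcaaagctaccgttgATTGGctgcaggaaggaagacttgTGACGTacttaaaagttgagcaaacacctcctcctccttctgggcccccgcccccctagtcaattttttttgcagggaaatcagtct
Csad: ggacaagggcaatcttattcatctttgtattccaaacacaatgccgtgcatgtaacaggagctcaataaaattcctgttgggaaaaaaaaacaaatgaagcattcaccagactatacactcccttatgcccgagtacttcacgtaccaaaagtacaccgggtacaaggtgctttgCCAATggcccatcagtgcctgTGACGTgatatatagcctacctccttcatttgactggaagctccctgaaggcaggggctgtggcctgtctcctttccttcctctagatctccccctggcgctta

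The 5 sequences had no motif of this set in common. The CCAAT box was found in 5 of the 7 windows of the called genes and in 20 of the 36 member windows, where 37.4% of 32851 promoters held it. Got1 had 6 CCAAT boxes, a number reached by 26 of the 32851 promoters (0.0791%). The shorter cAMP motif TGACGT occurred in 2 member windows, those of Aass and Csad, and in 7.51% of all promoters. The amino acid response element core occurred in 1 member window, that of Got1, where it overlaps a CCAAT box, and in 3.95% of all promoters. The full cAMP element (1.79% of all promoters) and the C/EBP palindrome (0.183%) were found in 0 member windows, and the E box (7.15%) in 1, that of Mccc2. The window of Gpt2 held no match at all. These matches describe letters in the windows and say nothing of binding.

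Among the transaminases, the cytosolic aspartate enzyme and the alanine enzyme Gpt2 were lower in DUhTP mice. Got1, which exchanges the amino group between aspartate and glutamate in the cytosol, read 1324, 1539 and 1254 in DUhTP mice and 5900, 5357 and 4660 in DUC mice. The highest DUhTP value was far below the lowest DUC value. Its means were 1373 ± 148 and 5306 ± 622 (SD, n = 3 per line), which gave a log2 fold change of -1.95 (SE 0.14) with an adjusted p of 0.00945 by limma. This was the largest fold change among the members (-3.86), and of the 6 arrays left out in turn only DUC replicate 2 cost the call (adjusted p = 0.0633). Got2, the mitochondrial partner, read 4345, 4699 and 4263 in DUhTP mice and 3897, 4035 and 4305 in DUC mice. The lines overlapped, and the log2 fold change was 0.12 with a 95% confidence interval from -0.14 to 0.38 (adjusted p = 0.566 by limma).

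Gpt2, the mitochondrial alanine transaminase, was called at all of its 3 probe sets. The brightest read 1519, 1407 and 1306 in DUhTP mice and 2834, 3229 and 2952 in DUC mice, so that all DUhTP arrays were below all DUC arrays. Its log2 fold change was -1.09 (SE 0.12, adjusted p = 0.0200 by limma, n = 3 per line). The next probe set read 1269, 1150 and 1083 against 2027, 2308 and 2245, and the dimmest 533, 513 and 433 against 1041, 1304 and 857, again without overlap. They gave log2 fold changes of -0.91 (adjusted p = 0.0290 by limma) and, for the dimmest, -1.10 (adjusted p = 0.0499). Each of the 3 calls was lost when any 1 array was left out, with an adjusted p from 0.0576 to 0.0989 for the brightest. Gpt, the cytosolic alanine transaminase, overlapped between the lines at 2086, 2134 and 1505 in DUhTP mice and 2080, 1961 and 1764 in DUC mice. Its log2 fold change of -0.03 had an interval from -0.46 to 0.39 (adjusted p = 0.935 by limma). Glud1, the glutamate dehydrogenase that releases ammonium, likewise overlapped at 4172, 3972 and 3529 against 3865, 4274 and 3955, with a log2 fold change of -0.05 and an interval from -0.34 to 0.23.

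**Figure D2:**
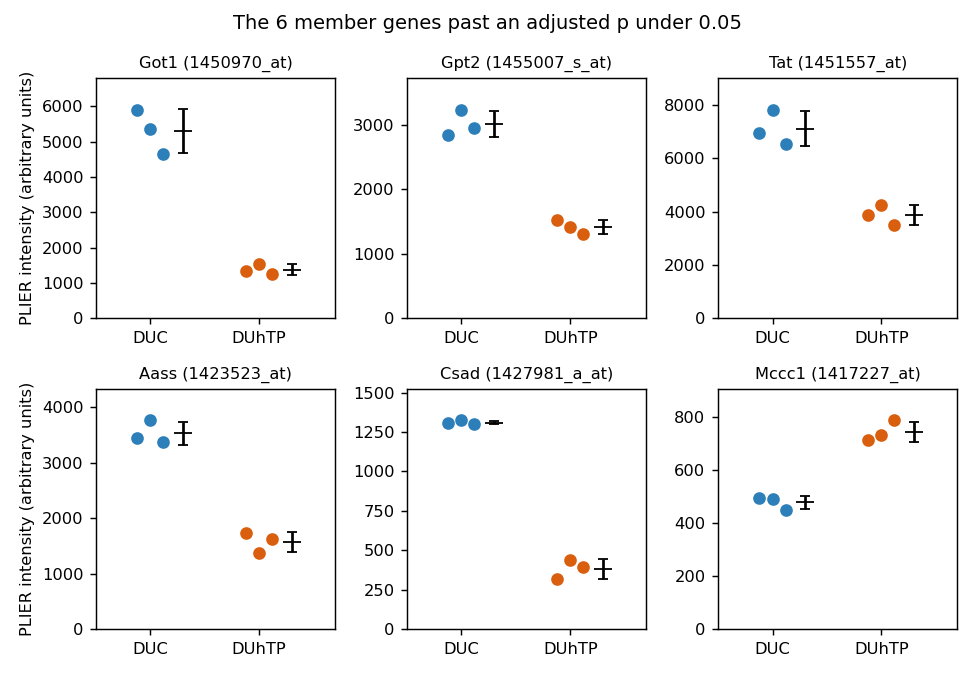
PLIER intensity (linear axis from 0, arbitrary units) of the 6 called members at their brightest probe set, with a point for each of the 3 DUC (blue) and 3 DUhTP (orange) arrays and a bar for the mean ± SD. In every panel the arrays of the lines are separate, with DUhTP lower in 5 panels and higher for Mccc1.

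In the tyrosine pathway the first enzyme was lower and the later ones were not called. Tat, the transaminase that commits tyrosine to breakdown, read 3886, 4248 and 3485 in DUhTP mice and 6952, 7829 and 6549 in DUC mice. The lines did not overlap, and the means of 3873 ± 382 and 7110 ± 654 (SD, n = 3 per line) gave a log2 fold change of -0.88 (SE 0.13, adjusted p = 0.0370 by limma). The call was lost when any 1 array was left out (adjusted p from 0.0701 to 0.139). Hpd, the dioxygenase of the second step, read 11648, 11718 and 11037 against 12221, 13111 and 12186. The DUhTP arrays were all lower, by a small margin, and the log2 fold change of -0.12 was not called (adjusted p = 0.531 by limma). Hgd, which opens the aromatic ring, also lay lower without overlap, with a log2 fold change of -0.24 (adjusted p = 0.383 by limma). Fah, the last enzyme, overlapped at a log2 fold change of 0.08 (adjusted p = 0.753).

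Gstz1, the isomerase between Hgd and Fah, went the other way. It read 3880, 3781 and 3739 in DUhTP mice and 2943, 3057 and 2550 in DUC mice, with all DUhTP arrays above all DUC arrays. Its log2 fold change was 0.42 (SE 0.12, adjusted p = 0.124 by limma), and it passed with 16 added (adjusted p = 0.0496), a call that was lost without any 1 of the arrays.

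None of the 3 histidine genes was called by limma, while 2 had an unadjusted p under 0.05, as had 21.7% of all genes. Hal, which deaminates histidine in the first step, read 1805, 1544 and 1732 in DUhTP mice and 2012, 1805 and 1718 in DUC mice. The lines overlapped, and its log2 fold change was -0.12 (interval from -0.43 to 0.18). The enzymes of the following steps, Uroc1 and Amdhd1, lay higher in all DUhTP arrays, Uroc1 at a log2 fold change of 0.39 (adjusted p = 0.175 by limma) and Amdhd1 at 0.31 (adjusted p = 0.201). The dimmer probe set of Uroc1 gave 0.05 (adjusted p = 0.898).

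Of the 3 genes of lysine and proline breakdown, 1 was called, lower. Aass, the bifunctional enzyme that begins lysine degradation through saccharopine, read 1727, 1375 and 1625 in DUhTP mice and 3457, 3766 and 3380 in DUC mice. The lines were well apart, with every DUC array above every DUhTP array. The means of 1576 ± 181 and 3534 ± 204 (SD, n = 3 per line) gave a log2 fold change of -1.17 (SE 0.13, adjusted p = 0.0210 by limma). Without any 1 of the arrays the call was lost, at an adjusted p from 0.0523 to 0.103.

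Prodh and Aldh4a1 oxidise proline to glutamate in consecutive steps. Prodh, the first, read 1094, 1042 and 935 in DUhTP mice and 1340, 1364 and 1314 in DUC mice. All DUhTP arrays were lower, with a log2 fold change of -0.39 that was not called (adjusted p = 0.129 by limma; 0.0579 with 16 added). Aldh4a1, the second, read 1198, 1212 and 812 against 677, 649 and 619. Here all DUhTP arrays were higher, and DUhTP replicate 3 lay well below the other two. The log2 fold change was 0.71 (SE 0.19, adjusted p = 0.114 by limma), and with 16 added it passed (adjusted p = 0.0263), also without DUhTP replicate 3 but not without any other array.

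No gene of the urea cycle was called by limma, although 3 of the 5 measured had an unadjusted p under 0.05 (21.7% of all genes) and 3 lay below DUC in every DUhTP array (16% of all genes). Cps1, the mitochondrial synthetase through which ammonium enters, read 8371, 7616 and 8864 in DUhTP mice and 10750, 9902 and 10523 in DUC mice. The log2 fold change was -0.33 (adjusted p = 0.177 by limma; 0.100 with 16 added). Asl, which splits argininosuccinate into arginine and fumarate, read 4356, 3478 and 3572 against 6181, 6079 and 5710. The lines were separate, and the log2 fold change of -0.66 (SE 0.13) had an adjusted p of 0.0645, or 0.0102 with 16 added. Arg1, which releases urea from arginine, read 6945, 5716 and 5404 against 9301, 8745 and 8963.

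Arg1 was thus also lower in each DUhTP array, at a log2 fold change of -0.59 (SE 0.13) with an adjusted p of 0.0843 by limma, or 0.0188 with 16 added. The calls with 16 added were lost without DUC replicate 2 for Asl (adjusted p = 0.0531), and for Arg1 without DUhTP replicate 3 (0.0505) or any of the DUC arrays (0.0673 to 0.0751). Otc, which joins carbamoyl phosphate to ornithine, overlapped between the lines on its brightest probe set, at 3209, 2837 and 3853 against 2940, 2755 and 3029. The log2 fold change there was 0.17 (adjusted p = 0.549 by limma). Its next probe set gave 0.04 (adjusted p = 0.908). The dimmest lay higher in all DUhTP arrays, at 0.37 (adjusted p = 0.173). Nags, which makes the activator of Cps1, overlapped at 645, 542 and 490 against 518, 569 and 534. Its log2 fold change was 0.04 (adjusted p = 0.896).

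**Figure D3:**
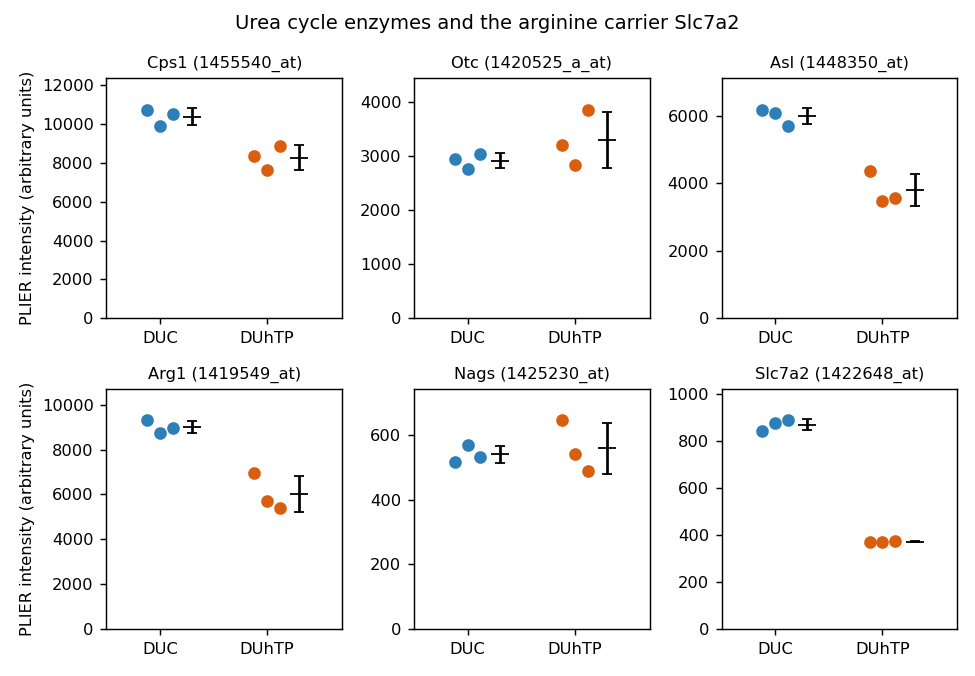
PLIER intensity (linear axis from 0, arbitrary units) of the 5 measured urea cycle genes and of the carrier Slc7a2 at their brightest probe set, with a point for each of the 3 DUC (blue) and 3 DUhTP (orange) arrays and a bar for the mean ± SD. Cps1, Asl, Arg1 and Slc7a2 are lower in all 3 DUhTP arrays, whereas Otc and Nags overlap.

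Genes around the cycle came from a second list of other amino acid genes. Slc7a2, a carrier of arginine and other cationic amino acids, was called lower at its 3 probe sets. The brightest read 371, 369 and 373 in DUhTP mice and 842, 877 and 886 in DUC mice, a log2 fold change of -1.23 (SE 0.10, adjusted p = 0.0103 by limma) that was lost without DUC replicate 1, 2 or 3 (0.0519 to 0.0686). The other two probe sets gave -1.19 and -1.84. Agmat, annotated as agmatinase, was higher, at 2019, 2256 and 2088 against 1310, 1289 and 1261, with a log2 fold change of 0.72 (SE 0.10, adjusted p = 0.0329 by limma) that was lost without any 1 array.

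In the group of branched-chain amino acids and propionate, 1 of 10 genes was called. Mccc1, the biotin-carrying subunit of methylcrotonyl-CoA carboxylase in leucine breakdown, read 713, 735 and 789 in DUhTP mice and 496, 491 and 451 in DUC mice. All DUhTP arrays were higher, and the means of 746 ± 38.9 and 479 ± 24.8 (SD, n = 3 per line) gave a log2 fold change of 0.64 (SE 0.11, adjusted p = 0.0475 by limma). The call was lost when any 1 array was left out, with an adjusted p from 0.0999 to 0.166. Mccc2, the other subunit of the same enzyme, overlapped between the lines at 230, 255 and 117 against 236, 212 and 171. Its log2 fold change was -0.11 (adjusted p = 0.884 by limma).

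Ivd, the dehydrogenase that precedes this carboxylase in leucine breakdown, read 1112, 1205 and 829 in DUhTP mice and 879, 810 and 858 in DUC mice on its brightest probe set. The lines overlapped there, at a log2 fold change of 0.29 (adjusted p = 0.384 by limma). Its dimmer probe set read 663, 552 and 668 against 414, 424 and 458, without overlap, at 0.54 (adjusted p = 0.0915), and passed with 16 added (0.0263) and with limma-trend (0.0106). With arrays left out in turn, the call with 16 added was kept only without DUhTP replicate 2.

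Mut, the mutase at the end of the propionate pathway, read 487, 378 and 479 in DUhTP mice and 583, 776 and 700 in DUC mice. The lines were separate, with a log2 fold change of -0.61 (SE 0.17, adjusted p = 0.122 by limma), and passed with 16 added (0.0337). That call was lost without DUhTP replicate 2 or 3 or DUC replicate 2 or 3. A probe set of nearly the same intensity gave -0.63 (adjusted p = 0.0957). The propionyl-CoA carboxylase subunits Pcca and Pccb overlapped between the lines, Pcca at a log2 fold change of 0.04 (adjusted p = 0.853) and Pccb at -0.21 (adjusted p = 0.402).

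The branched-chain ketoacid dehydrogenase, which commits these amino acids to oxidation, was measured by 3 of its subunits. Bckdhb read 2287, 2223 and 1766 in DUhTP mice and 2336, 2342 and 2141 in DUC mice, and Bckdha 1069, 1100 and 714 against 1083, 1137 and 961. Both overlapped, Bckdhb at a log2 fold change of -0.13 (adjusted p = 0.653 by limma) and Bckdha at -0.17 (adjusted p = 0.689). Dbt, the core subunit, read 246, 115 and 265 against 413, 385 and 352. All DUhTP arrays were lower and spread widely, so that a log2 fold change of -0.97 carried an SE of 0.34 and was not called (adjusted p = 0.183; 0.0526 with 16 added). Bcat2, the mitochondrial transaminase of the first step, was dim at 31.3, 30.1 and 23.7 against 20.6, 20.8 and 21.7, with a log2 fold change of 0.42 (adjusted p = 0.173).

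Of the 5 measured genes of glycine, serine and glyoxylate, none was called by limma, and 1 had an unadjusted p under 0.05, beside 21.7% of all genes. That gene was Gcsh, the lipoyl carrier protein of the glycine cleavage system, at 1871, 1894 and 1762 in DUhTP mice and 1398, 1412 and 1470 in DUC mice. All DUhTP arrays were higher, with a log2 fold change of 0.37 (adjusted p = 0.120 by limma; 0.0579 with 16 added). Gldc, the decarboxylase of the same system, overlapped at a log2 fold change of -0.01 (adjusted p = 0.965). Agxt, which detoxifies glyoxylate in peroxisomes, read 3227, 3650 and 2918 against 2539, 3404 and 3077, with overlap and a log2 fold change of 0.12 (interval from -0.27 to 0.51).

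The serine hydroxymethyltransferases feed folate-dependent one-carbon metabolism from the cytosol (Shmt1) and mitochondria (Shmt2). Shmt1 was the only member whose probe sets had both signs, from -0.10 to 0.18 over 4 probe sets. The brightest read 1184, 1094 and 1041 in DUhTP mice and 1034, 1160 and 994 in DUC mice, and the one with the most positive value read 381, 224 and 392 against 250, 294 and 313. The others read 720, 629 and 525 against 695, 744 and 550, and 756, 373 and 720 against 581, 649 and 658. The lines overlapped on each of them, with adjusted p-values between 0.727 and 0.885. The 4 probe sets of Shmt2 gave log2 fold changes from 0.09 to 0.41, and none was called.

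Both measured members of the cysteine and taurine group lay lower in every DUhTP array, and Csad was called. Csad, the decarboxylase on the route from cysteine to taurine, read 315, 438 and 393 in DUhTP mice and 1307, 1324 and 1302 in DUC mice. The DUC arrays were close together and the lines far apart. The means of 382 ± 62.4 and 1311 ± 11.8 (SD, n = 3 per line) gave a log2 fold change of -1.79 (SE 0.15, adjusted p = 0.0107 by limma), lost without DUC replicate 1, 2 or 3 (0.0583 to 0.0725). Cdo1, the dioxygenase that oxidises cysteine in the step before, read 5951, 5065 and 4711 against 7239, 7347 and 6576. Its log2 fold change was -0.43 (adjusted p = 0.148 by limma; 0.0583 with 16 added).

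Other genes of sulfur amino acids stood on both sides. Cth, cystathionine gamma-lyase, which forms cysteine, read 2841, 2837 and 2839 in DUhTP mice and 5771, 5691 and 5804 in DUC mice, a log2 fold change of -1.02 (SE 0.09, adjusted p = 0.0141 by limma). Ethe1, the persulfide dioxygenase of mitochondrial sulfide oxidation, was higher, at 1459, 1510 and 1573 against 760, 712 and 642, with a log2 fold change of 1.11 (SE 0.11, adjusted p = 0.0180 by limma). With arrays left out in turn, the call of Cth was kept only without DUhTP replicate 2 (adjusted p = 0.0463), and that of Ethe1 was lost without any 1 array.

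Enzymes that act as partners were compared within arrays, as the log2 difference of their brightest probe sets. For 8 pairs the difference was set against the line by a two-sided exact permutation test over the 20 assignments of arrays. The smallest possible p of this test is 0.1. The design named the first 3 pairs given here as partners but did not plan this test on them. The other 5 pairs were chosen after the values were seen. Got1 minus Got2 was lower in DUhTP than in DUC mice (difference -2.07 on the log2 scale), and Gpt2 minus Gpt was lower as well (difference -1.06). Both reached the exact p of 0.1 (0.16 adjusted over the 8 pairs). Shmt1 minus Shmt2 differed by -0.11 (exact p = 0.4).

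Among the other pairs, Csad minus Cdo1 differed by -1.36, Aldh4a1 minus Prodh by 1.10 and Mccc1 minus Mccc2 by 0.75, each without overlap between the lines and with the exact p of 0.1. Pcca minus Pccb differed by 0.25 (exact p = 0.2) and Bckdha minus Bckdhb by -0.04 (exact p = 0.9). With 3 arrays per line none of these could pass 0.05.

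The members also varied together among arrays of the same line. DUhTP replicate 3 was the lowest of its line in 26 of 38 members (68.4%), where it was the lowest in 32.9% of all genes. DUC replicate 3 was the lowest of its line in 22 members (57.9%), beside 35.8% of all genes. DUhTP replicate 1 was the lowest in 2 members, beside 26.2% of all genes. The members are brighter, with a median mean intensity of 1702 beside 76.1 for all genes. The arrays were not ranked among bright genes alone, so these shares do not show a trait particular to the members. The median SD of log2 intensity came to 0.157 among DUhTP arrays and 0.0759 among DUC arrays for the members, and 0.203 and 0.155 for all genes. What sets these arrays apart was not tested.

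**Figure D4:**
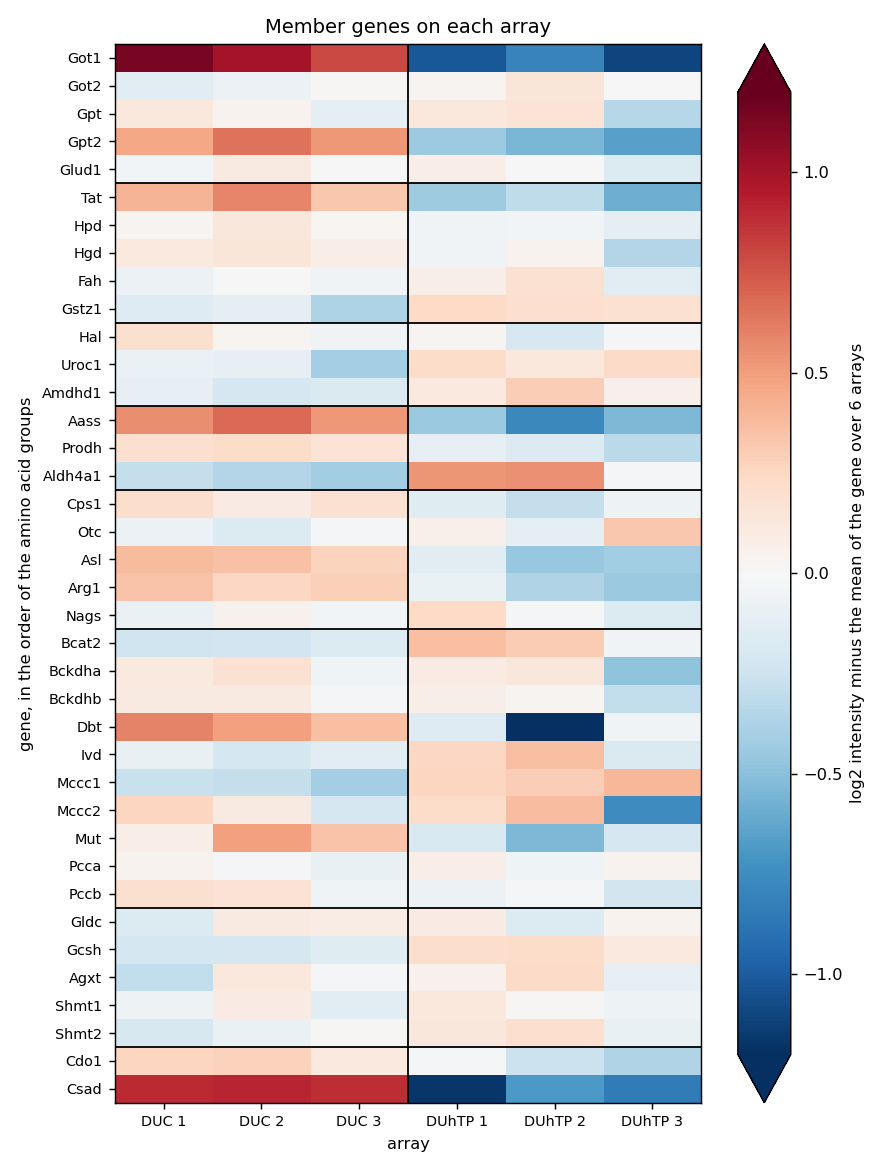
Log2 intensity of the 38 members (rows, by amino acid group) on the 6 arrays (columns), as the difference from each gene's mean over the 6 arrays, with red above and blue below that mean and the colours saturating at the ends of the scale. Got1, Gpt2, Tat, Aass and Csad are red in the DUC columns and blue in the DUhTP columns, and in the DUhTP replicate 3 column 26 members are at the lowest value of their line.

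The wider list of amino acid genes held 90 genes, of which 74 were measured and 5 were called (6.76%), 3 higher and 2 lower. With 16 added 15 passed (20.3%), 7 higher and 8 lower. The shares of all genes were 2.68% and 8.92%. Their median log2 fold change was 0.02. Besides those named above, Haao of the kynurenine route of tryptophan was called, at 1991, 2105 and 1854 in DUhTP mice and 1108, 1209 and 1049 in DUC mice, a log2 fold change of 0.82 (SE 0.11, adjusted p = 0.0321 by limma). Qprt, which follows it on the way to NAD, was called at its dimmer probe set only, at 322, 422 and 286 against 131, 150 and 135 (log2 fold change 1.29, adjusted p = 0.0310 by limma), and gave 0.28 on the brighter one (adjusted p = 0.300). Both calls were lost without any 1 array.

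Of 11 measured regulators of amino acid catabolism, which included receptors and transcription factors of the hepatocyte, limma called 0, while 4 had an unadjusted p under 0.05 (21.7% of all genes) and 2 passed with 16 added (8.92% of all genes). These last were Cebpb, a transcription factor of the fasting and acute-phase response, at a log2 fold change of -0.91 (adjusted p = 0.0732 by limma; 0.00953 with 16 added), and Hnf4a, a nuclear receptor of hepatocytes, at -0.41 (adjusted p = 0.116; 0.0467 with 16 added).

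Markers of other cells moved with the line in part. Of the exocrine pancreas, 9 of 12 listed markers were measured and all had negative log2 fold changes with a median of -2.55. None was called by limma, and 4 passed with 16 added. Summed over the markers, the arrays read 4255, 1012 and 2682 in DUhTP mice against 4883, 9553 and 7169 in DUC mice. DUhTP replicate 2 had the least of them and the highest values of Got1, Tat and Csad among the DUhTP arrays, while its Gpt2 value lay between the other two and its Aass value was the lowest. Their part in the lower values of the called members was not tested.

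The 8 Kupffer cell markers measured of 9 summed to between 3623 and 4551 in DUhTP mice and to between 2516 and 3453 in DUC mice, and Clec4f was called, at 588, 724 and 624 against 346, 259 and 285 (log2 fold change 1.13, adjusted p = 0.0320 by limma). With 16 added 3 Kupffer markers passed higher and 1 lower, the latter being Marco (-0.60, adjusted p = 0.0778, or 0.0434 with 16 added). With arrays left out in turn, that call of Marco was kept only without DUhTP replicate 2. Of 7 stellate cell markers Col3a1 was called, at 226, 255 and 306 against 144, 126 and 141 (0.93, adjusted p = 0.0434). Its dimmer probe set gave 0.32 (adjusted p = 0.346 by limma). The stellate markers had a median of 0.02, with 5 positive and 2 negative. Of 2 erythroid markers measured of 4 listed Alas2 was called, at 1558, 1187 and 1203 against 715, 763 and 650 (0.88, adjusted p = 0.0499). The other, Hba-a1, overlapped between the lines at -0.08 (adjusted p = 0.869 by limma). The calls of Clec4f, Col3a1 and Alas2 were each lost when any 1 array was left out. Among the 7 sinusoidal endothelial, 5 cholangiocyte, 6 lymphocyte, 3 adipocyte and 5 kidney tubule markers measured none was called, and 1 endothelial marker passed with 16 added. The part of these cells in the results was not tested.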

How the data were processed

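Liver total RNA of 3 DUhTP and 3 DUC arrays was measured on the Affymetrix Mouse Genome 430A 2.0 array. According to the submitters' processing notes and the methods of the study, the authors processed the scans with GCOS 1.1.1 under global scaling and then used Array Assist, with PLIER as the summary of each probe set. Its version and any added constant are not given in the sources used here. The deposited values are PLIER intensities on a linear scale.

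Of 22690 probe sets, 64 controls were removed. Log2 intensities of the other 22626, with no constant, were fitted with limma 3.58.1 in R 4.3.3 (lmFit and eBayes, DUhTP against DUC, Benjamini-Hochberg adjustment over all probe sets, threshold 0.05). The annotation gave 1 symbol to 20380 probe sets, several to 691 and none to 1555. Each gene was represented by its single-symbol probe set of highest mean log2 intensity. The members, lists and tests were chosen with earlier results of these data known. All members were named. The rule called for values by array of members called with or without 16 added, of the brightest of each group, of genes whose probe sets differed in sign and of the called genes of the other lists. Values by array of further members, such as the partners Gpt and Mccc2 and the other urea cycle genes, were added after their values were seen. Same-numbered arrays of the lines did not deviate together (correlations 0.00341, 0.0048 and 0.0667), so the numbers were not used as pairs. Alternatives were 16 added, removal of the dimmest 33.3% of probe sets, limma-trend, array weights, quantile normalization, other choices of probe set, a replicate block and each array left out. The limma script was tested on simulated data. The number of arrays limits the precision.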

Additional observations from a re-analysis of the deposited data

How the results depend on the processing

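With 3 arrays per line the number of calls depended on the settings. No called member changed direction under any alternative run, but several alternatives could not have changed one. The lines did not overlap in the called members, so leaving out 1 array had to keep the sign. Limma-trend and the replicate block leave the fold changes as they are. Of the members, 6 genes were called (1 higher and 5 lower; 8 probe sets, 6 genes at any probe set, 4 with a fold change over 2), and 5 of the other amino acid genes. In the same order, adding 16 gave 11 genes (3 higher and 8 lower; 15 probe sets, 12 genes at any probe set) and 15 other genes, with 8.92% of all genes called where the main setting called 2.68%. Leaving out the dimmest 33.3% of probe sets gave 11 (3 and 8; 16 probe sets, 13 genes) and 16, with 12.2% of all genes. Limma-trend gave 17 (5 and 12; 22 probe sets, 19 genes) and 23, with 11.2% of all genes. An unadjusted p under 0.05 gave 19 (7 and 12; 25 probe sets, 22 genes) and 31, with 21.7% of all genes. Probe sets for a single transcript gave 3 of the 33 members that had one (0 and 3; 3 probe sets, 3 genes, 2 with a fold change over 2), with 1.91% of all genes. Csad had no such probe set and was not tested there, and Gpt2 was represented by its dimmest. Array weights gave 8 other genes, with 3.36% of all genes. The cause of these shifts was not tested.

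Without 1 array, 0 to 2 member genes were called (0 higher, 0 to 2 lower), with 0 to 2 probe sets, 0 to 2 genes at any probe set, 0 to 2 with a fold change over 2 and 0 to 2 other genes, while 0 to 0.573% of all genes were called. The fewest were called without DUC replicate 2, when limma called 1 of all probe sets and 0 members, whose smallest adjusted p was 0.0633. With 16 added, 6 to 11 member genes, 8 to 14 probe sets, 6 to 11 genes at any probe set, 4 to 5 with a fold change over 2 and 8 to 14 other genes were called. With 16 added and all arrays, 8.92% of all genes were called. The share without 1 array is not given for these fits, so their counts have no background of their own. The median log2 fold change of the members ranged from -0.122 to 0.0243, or from -0.121 to 0.024 with 16 added, and was positive only without DUhTP replicate 3.

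The replicate block, for numbers that did not pair the arrays, gave 0 member genes in either direction, 0 of their probe sets and 0 other genes by limma. In that fit 0 of all probe sets were called, and the smallest adjusted p among the members was 0.115 by limma. Not every array deviated most like the array of its own number.

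Signs turned only in uncalled genes near 0. Gldc became 0.0114 with array weights and lay between -0.102 and 0.0612 without 1 array, Nags between -0.0665 and 0.132, Gpt between -0.124 and 0.128, Glud1 between -0.106 and 0.0152, Bckdha between -0.276 and 0.0357, and Mccc2 between -0.321 and 0.24. Dim probe sets such as those of Bcat2 carry the least information.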
